A study of Mus musculus with 4 samples.

Results

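Laminins, nidogens and perlecan are the non-collagen glycoproteins that build the basement membrane, and 10 of their genes were followed here in a mouse neural crest cell line after knockdown of Lkb1. The genes were taken by symbol from a table of 15768 genes, with collagens left aside: the laminin alpha chain genes Lama1, Lama2, Lama4 and Lama5, the beta chain genes Lamb1 and Lamb2, the gamma chain gene Lamc1, the nidogen genes Nid1 and Nid2, and Hspg2, which encodes perlecan. The cells were JoMa1.3, a conditionally immortalised line that stands for neural crest progenitors, and every result therefore comes from a single cell line. The control group (genotype WT, treatment siRNA control) received a pool of non-targeting siRNAs and the other group (genotype Lkb1 KD, treatment siRNA LKB1) a pool aimed at Stk11, as the Lkb1 gene is called in the mouse, both at 60 nM for 72 h. LKB1 is a kinase that switches on AMPK and its relatives. All cultures were grown in the same medium with N2 and B27 supplements, epidermal and fibroblast growth factors and chick embryo extract. The labels name both jetPRIME and RNAiMax as transfection reagents without assigning them to libraries. Each group had 2 libraries, 1 from batch 1 and 1 from batch 2. The series set out to find effectors that respond when Lkb1 is lost.

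A basement membrane is a thin sheet of matrix that underlies epithelia and endothelia and wraps muscle, fat and Schwann cells. Laminins are trimers of an alpha, a beta and a gamma chain; they are assembled inside the cell, are secreted and then polymerise at the cell surface, where integrins and dystroglycan bind mainly their alpha chains. Nidogens and perlecan link the laminin network to the collagen IV network, and perlecan also carries heparan sulfate chains that hold growth factors. Neural crest cells migrate along laminin-rich matrix, and crest-derived glia later make a basement membrane of their own.

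RefSeq promoter windows (mouse build GRCm38.p6, not the GRCm39 build of the expression tables) were at hand for 6 of the 10 genes: Lama2, Lama5, Lamb1, Lamb2, Nid1 and Hspg2. The windows printed are those of the 3 genes that passed as lower in edgeR with batch as a replicate block, described below. None of these genes passed without a batch term. Each window covers the 250 bases before the annotated start, 5′ to 3′ on the gene's strand, with matches to the searched motifs in capitals. Lama5 lies on the minus strand (chr2:180225860-180226109), Lamb1 on the plus strand (chr12:31265043-31265292) and Nid1 on the plus strand (chr13:13437352-13437601).
Lama5: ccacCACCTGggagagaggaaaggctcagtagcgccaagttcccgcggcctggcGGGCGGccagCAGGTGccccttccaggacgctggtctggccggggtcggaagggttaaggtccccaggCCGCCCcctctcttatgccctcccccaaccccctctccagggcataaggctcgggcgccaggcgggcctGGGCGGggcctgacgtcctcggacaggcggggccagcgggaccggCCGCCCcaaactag
Lamb1: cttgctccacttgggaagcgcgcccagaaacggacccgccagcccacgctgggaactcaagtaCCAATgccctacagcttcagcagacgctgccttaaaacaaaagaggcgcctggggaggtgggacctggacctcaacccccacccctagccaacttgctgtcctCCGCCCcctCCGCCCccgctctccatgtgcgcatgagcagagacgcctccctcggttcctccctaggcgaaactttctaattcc
Nid1: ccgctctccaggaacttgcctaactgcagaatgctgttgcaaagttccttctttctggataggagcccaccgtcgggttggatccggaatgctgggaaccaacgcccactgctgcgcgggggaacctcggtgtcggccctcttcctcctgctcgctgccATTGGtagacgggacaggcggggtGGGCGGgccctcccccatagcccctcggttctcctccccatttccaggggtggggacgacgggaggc

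The motifs searched on both strands were the GC box GGGCGG, the CCAAT box CCAAT, the TATA box TATAAA, the cAMP response element TGACGTCA, the AP-1 site TGANTCA, the E-box CACGTG and the SNAI-type E-box CAGGTG, and no match in the printed windows overlapped another. The GC box occurred 4 times before Lama5, 2 times before Lamb1 and 1 time before Nid1, and it was present in 32.7% of the 32851 promoter windows of this length. A CCAAT box occurred 1 time each before Lamb1 and Nid1, against 33.8% of all windows. The SNAI-type E-box occurred 2 times before Lama5, against 17.2% of all windows. The TATA box (12.4% of all windows), the cAMP response element (1.55%), the AP-1 site (6.75%) and the E-box CACGTG (6.02%) had no match in these 3 windows. Hspg2, which is also rich in G and C (70.0%), held 5 GC boxes, and the windows of Lama2 and Lamb2 held none of the motifs. The GC content was 72.4% before Lama5, 62.0% before Lamb1 and 64.4% before Nid1, against a median of 52.4% over all windows. A match is a description of the letters and does not show that a factor binds.

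The libraries held between 17426719 and 19324675 gene counts, and the level of Stk11 checks the knockdown. In batch 1 and 2, Stk11 read 52.7 and 52.1 FPKM (fragments scaled to transcript length and library size) with control siRNA and 36.3 and 36.9 FPKM with Lkb1 siRNA, so the groups were apart. It fell by 0.55 on the log2 scale (SE 0.0659, edgeR adjusted p = 0.0378). Of the 11 neural crest markers, 9 were in the table and 2, Sox10 and Foxd3, were not found in it by symbol. The 9 summed to between 194.8 and 206.7 FPKM, led by Snai2, Tfap2b, Nes and Twist1. Ets1, Pax3 and Sox9 were lower, and Tfap2a and Ngfr did not exceed 2.26 and 0.80 FPKM. Glial markers (6 of 9 in the table) summed to between 7.27 and 8.15 FPKM, with Gfap at or below 0.05 FPKM. Endothelial markers (6 of 6) stayed between 0.23 and 0.47 FPKM in sum and epithelial markers (4 of 6) between 0.28 and 0.64 FPKM. Fibroblast markers (6 of 7) summed to between 1117 and 1515 FPKM. Most of this was Col3a1 (627.8 to 795.0 FPKM) and Col1a1 (367.9 to 565.0 FPKM). Dcn and Pdgfrb were lower, and Lum and Pdgfra did not exceed 9.13 and 4.47 FPKM. Smooth muscle and myofibroblast markers (7 of 7) summed to between 312.0 and 412.5 FPKM, although Cnn1 and Myh11 did not exceed 0.07 FPKM.

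Levels per transcript length separated a set of abundant genes from an alpha chain set that was low or close to 0. Nid1 stood first, with a mean of 156.6 ± 6.72 FPKM (SD over all 4 libraries). Hspg2 (69.9 ± 4.80), Lamb1 (69.7 ± 4.54) and Lamc1 (66.7 ± 1.94) followed, with overlapping ranges between neighbours: Hspg2 was above Lamb1 in 2 of the 4 libraries and Lamb1 above Lamc1 in 3 of the 4. Nid2 (56.7 ± 2.67), Lamb2 (47.4 ± 5.52) and Lama5 (8.80 ± 1.28) came next and did not overlap one another. Lama4 (0.35 ± 0.0216), Lama2 (0.11 ± 0.0455) and Lama1 (0.0075 ± 0.00957) were at the bottom. By mean FPKM in the control libraries, Nid1 ranked 551 and Lama5 6936 among the 15768 genes of the table.

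**Figure D1:**
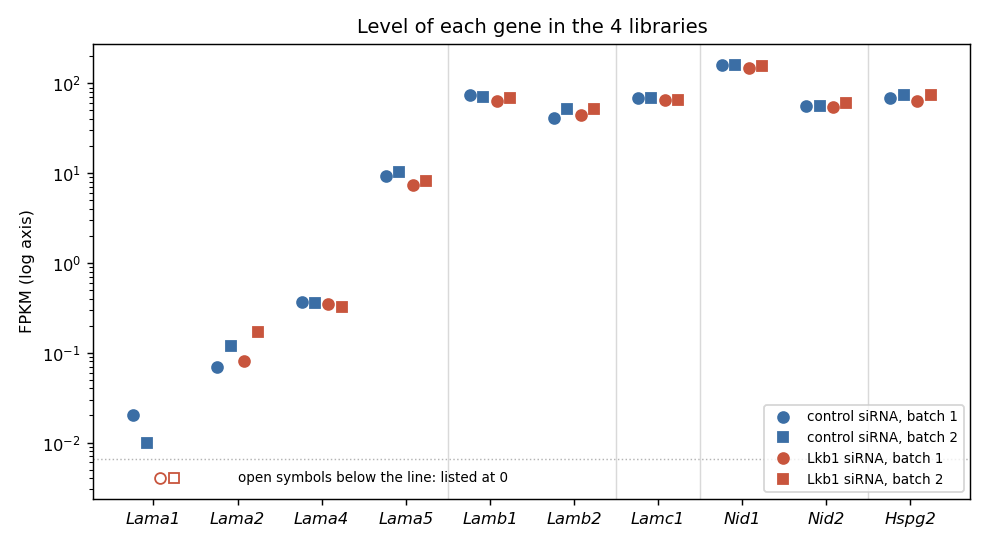
FPKM of each gene (log axis) in the 4 libraries, with blue for control siRNA, red for Lkb1 siRNA, circles for batch 1 and squares for batch 2; open symbols below the dotted line are libraries in which the gene is listed at 0. Nid1 lies above 147 FPKM in every library, while Lama1, Lama2 and Lama4 lie below 0.4 FPKM.

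Lama5 (NCBI gene ID 16776) encodes the alpha chain that is most widespread in mature basement membranes, and it supplied nearly all alpha chain RNA of these cells. In batch 1 and 2 it read 9.20 and 10.35 FPKM with control siRNA and 7.36 and 8.27 FPKM with Lkb1 siRNA, the order kept for every pair of values that follows. Both Lkb1 siRNA libraries were below both control libraries. In CPM (counts scaled to library size) Lama5 stood at 109.2 ± 7.70 in control and 85.3 ± 6.58 in Lkb1 siRNA libraries (SD, n = 2 per group), a log2 fold change of -0.36 (SE 0.0817), and the batches gave -0.36 and -0.35. Without a batch term this missed the threshold of 0.05 (edgeR adjusted p = 0.182), while with batch as a replicate block Lama5 fell (edgeR adjusted p = 2.42e-09). Leaving out 1 library in the fit with no batch term, the log2 fold change of Lama5 was between -0.437 and -0.279. Each of these fits leaves 1 library in a group, so siRNA and batch are partly mixed in it. With the block, limma on log2(FPKM + 1) gave Lama5 an adjusted p of 0.0677. In a bulk sample, fewer cells of a type that makes a transcript and less of that transcript per cell cannot be told apart.

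The other alpha chains were scarce. Lama4 (16775), the alpha chain of vessel and Schwann cell laminins, had 40 and 40 counts in the control siRNA libraries and 35 and 34 in the Lkb1 siRNA libraries, a log2 difference of -0.16 (SE 0.253; adjusted p = 0.854 in edgeR). Lama2 (16773), the alpha chain of muscle and Schwann cell laminin whose loss causes a congenital muscular dystrophy, had 12 and 21 counts in control and 13 and 30 in Lkb1 siRNA libraries. Its batch 2 libraries were the higher ones in both groups, the groups overlapped, and the log2 fold change of 0.43 had an SE of 0.449 (edgeR adjusted p = 0.764). Lama1 (16772), the alpha chain of early embryonic basement membranes, had 3 and 2 counts in control libraries and 0 in both Lkb1 siRNA libraries. It did not pass the filter on low counts, and 0 counts allow up to 3 counts, or 0.16 to 0.171 CPM at these depths, so no difference was detectable for it. These limits cover counting error only.

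Lamb1 (16777) encodes the beta chain of most embryonic laminins. It was at 75.2 and 70.7 FPKM in control and at 64.4 and 68.3 FPKM in Lkb1 siRNA libraries, and the groups did not overlap. In CPM it was 404.6 ± 23.2 against 359.3 ± 13.6 (SD, n = 2 per group), a log2 fold change of -0.17 (SE 0.0711; without a batch term the edgeR adjusted p was 0.414). With the replicate block Lamb1 fell (edgeR adjusted p = 0.00585), although the difference was -0.27 in batch 1 and -0.07 in batch 2. Lamb2 (16779), the beta chain of kidney, muscle endplate and vessel laminins, was at 41.2 and 51.8 FPKM in control and at 44.3 and 52.3 FPKM in Lkb1 siRNA libraries. Here the libraries paired by batch and not by siRNA, and the log2 fold change after Lkb1 siRNA was 0.02 (SE 0.109, edgeR adjusted p = 0.960).

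Lamc1 (226519), the gamma chain shared by most laminins, was at 68.5 and 68.3 FPKM in control and at 64.9 and 65.2 FPKM in Lkb1 siRNA libraries. The groups did not overlap and each was tight, at 507.2 ± 8.28 and 471.3 ± 0.200 CPM (SD, n = 2 per group). The log2 fold change of -0.11 (SE 0.0629) missed the threshold both without a batch term (edgeR adjusted p = 0.560) and with the replicate block (edgeR adjusted p = 0.119).

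Nid1 (18073) and Nid2 (18074) encode the nidogens, which bind the laminin gamma chain. Nid1 was at 161.6 and 161.9 FPKM in control and at 147.7 and 155.1 FPKM in Lkb1 siRNA libraries, with the groups apart. In CPM it was 941.9 ± 11.6 against 860.9 ± 27.0 (SD, n = 2 per group), a log2 fold change of -0.13 (SE 0.0628; without a batch term the edgeR adjusted p was 0.484). With the replicate block Nid1 fell (edgeR adjusted p = 0.0313), by 0.17 in batch 1 and by 0.09 in batch 2 on the log2 scale. Nid2 was at 55.4 and 56.2 FPKM in control and at 54.7 and 60.6 FPKM in Lkb1 siRNA libraries. Its Lkb1 siRNA libraries lay on either side of the controls, and the log2 fold change was 0.01 (SE 0.0716, edgeR adjusted p = 0.960).

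Hspg2 (15530), the gene of perlecan, was at 68.7 and 73.6 FPKM in control and at 63.7 and 73.8 FPKM in Lkb1 siRNA libraries. The batch 1 library with Lkb1 siRNA was the lowest and the batch 2 library the highest of the 4 in FPKM, so the groups overlapped. The log2 fold change was -0.08 (SE 0.0788; edgeR adjusted p = 0.736 without and 0.195 with the replicate block), made of -0.15 in batch 1 and -0.02 in batch 2.

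Counted together, no gene of the 9 tested passed in either direction without a batch term, in edgeR or in DESeq2, where 0.0818% of all 12222 genes tested passed in edgeR and 0.401% in DESeq2. At an unadjusted p under 0.05 in edgeR, 2 of the 9 were lower (Lama5 and Lamb1) and 0 higher. Among all 12222 genes tested, 676 were lower and 686 higher at that p. With the replicate block 3 of the 9 fell (Lama5, Lamb1 and Nid1), against 6.99% of all genes, and 0 rose, against 6.59% of all genes. The number lower differed among fits with the block. DESeq2 called 1 of them (Lama5) and 1.1% of all genes with an adjusted p, limma on log2(FPKM + 1) called 0 of them and 1.05% of all genes, and edgeR after removal of a gene length trend called 5 (also Lamc1 and Hspg2) and 6.67% of all genes. Of the 9 genes, 6 had a lower mean after Lkb1 siRNA, each of them in both batches, though Hspg2 differed by only -0.02 in batch 2. The share of all genes that were lower in both batches was not counted. Of the 9, 5 had both Lkb1 siRNA libraries below both controls, which 21.4% of all genes tested did. The median log2 fold change of the 9 was -0.11, against 0.00049 over all genes tested.

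**Figure D2:**
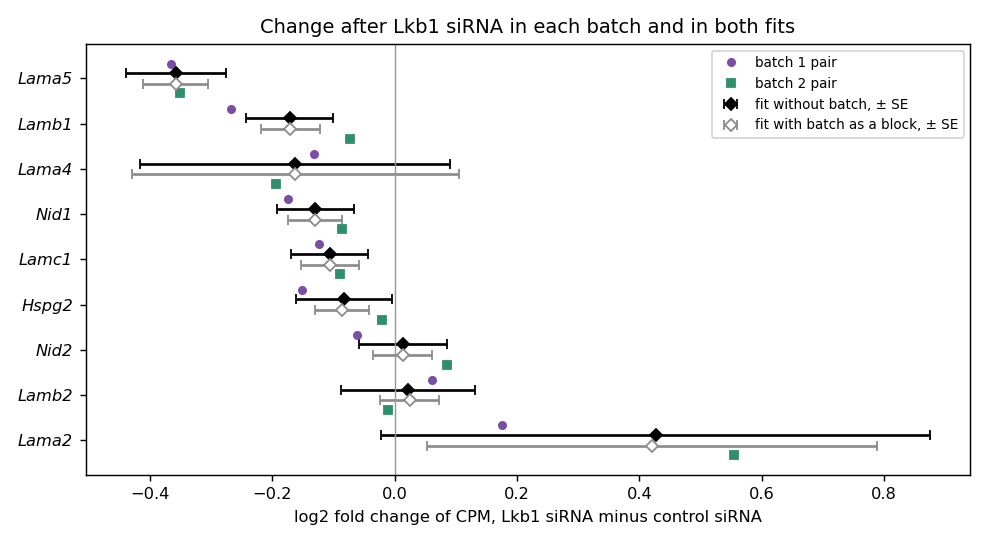
Log2 fold change of CPM, Lkb1 siRNA minus control siRNA, for the 9 genes tested: black diamonds without and white diamonds with batch as a block (bars, SE), purple circles for the batch 1 pair and green squares for the batch 2 pair. Lama5 has nearly the same value in both batches (-0.36 and -0.35), Lamb1 does not (-0.27 and -0.07), and the SE of Lama2 (0.449 without the block) is the widest.

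Marker levels moved in the same comparison. Of the fibroblast markers 3 of 6 tested, Col1a1, Dcn and Col3a1, fell with the replicate block. The marker sum, mostly Col3a1 and Col1a1, was 1274 and 1515 FPKM in control and 1117 and 1300 FPKM in Lkb1 siRNA libraries. Of the smooth muscle and myofibroblast markers 2 of 5 tested, Acta2 and Tagln, fell with the block, from sums of 412.5 and 386.3 to 331.3 and 312.0 FPKM. Markers of other types also changed with the block, on the log2 scale. Erbb3, a receptor of glia and Schwann cells, changed by -0.65 (1 of 4 glial markers tested, edgeR adjusted p = 7.27e-06). Tubb3, a neuronal tubulin, changed by 0.31 (edgeR adjusted p = 0.0436), with 0.53 in batch 1 and 0.07 in batch 2. Tubb3 was the 1 neuronal marker tested, of 12 listed and 4 in the table. Of the 9 neural crest markers Snai2 fell by 0.17 (edgeR adjusted p = 0.0157) and Pax3 rose by 0.19 (edgeR adjusted p = 0.0177). The part of these markers' cell states in the lower laminin and nidogen levels was not tested.

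The make-up of laminin by chain class was described per length, with the laminin chains outside the 10 genes included in the sums. Alpha chain RNA was far below beta and gamma chain RNA: the summed alpha level was 9.67 and 10.91 FPKM in control and 7.83 and 8.78 FPKM in Lkb1 siRNA libraries, against gamma sums of 69.0 and 68.9 FPKM and 65.4 and 65.6 FPKM. Per 100 FPKM of gamma chain there were 14.0 and 15.8 FPKM of alpha chain in control and 11.98 and 13.4 FPKM in Lkb1 siRNA libraries. The groups did not overlap in this ratio, with means of 14.9 ± 1.30 and 12.7 ± 0.996 (SD, n = 2 per group; exact two-sided permutation test, p = 0.333, the smallest that 2 against 2 libraries allow). Beta chain RNA stood at 169.9 and 179.4 FPKM per 100 FPKM of gamma chain in control and at 168.0 and 185.7 FPKM in Lkb1 siRNA libraries (exact permutation p = 1).

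Lama5 made up 95.1 and 94.9% of alpha chain FPKM in control and 94.0 and 94.2% in Lkb1 siRNA libraries (exact permutation p = 0.333). Lamc1 made up between 99.1 and 99.4% of gamma chain FPKM. The beta class was shared: Lamb1 held 64.1 and 57.3% of it in control and 58.6 and 56.1% in Lkb1 siRNA libraries, with the control library of batch 1 the highest and the groups overlapping (exact permutation p = 0.667). Nid1 stood at 235.9 and 237.2 FPKM per 100 FPKM of Lamc1 in control and at 227.7 and 237.8 FPKM in Lkb1 siRNA libraries, so this ratio overlapped between groups (exact permutation p = 1). Nid1 held 74.5 and 74.2% of nidogen FPKM in control and 73.0 and 71.9% in Lkb1 siRNA libraries (exact permutation p = 0.333).

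**Figure D3:**
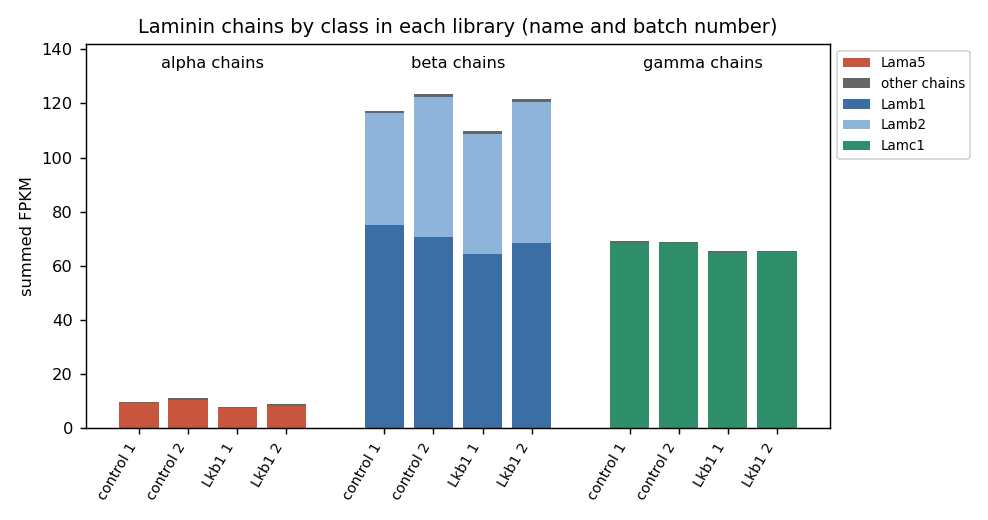
Summed FPKM of laminin alpha, beta and gamma chains in each library, stacked by gene, with bars starting at 0. The alpha class stays below 11 FPKM and is nearly all Lama5, the beta class is split between Lamb1 and Lamb2, and the gamma class is nearly all Lamc1.

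The second contrast of the design, batch 2 against batch 1 with the siRNA group in the model, called Lamb2, Hspg2 and Lama5. Lamb2 was higher in batch 2 by 0.27 on the log2 scale (SE 0.0485, edgeR adjusted p = 3.52e-06), Hspg2 by 0.14 (SE 0.0443, edgeR adjusted p = 0.0195) and Lama5 by 0.15 (SE 0.0529, edgeR adjusted p = 0.039). Thus 3 of the 9 genes were higher in batch 2, against 6.3% of all genes tested, and 0 were lower, against 6.62% of all genes. Lama2 was at 0.93 (SE 0.377) and did not pass (edgeR adjusted p = 0.081). Lamb1, Lamc1 and Nid1 differed by -0.02, -0.02 and 0.02. Lamb2 alone was called higher with DESeq2 (1.49% of all genes with an adjusted p), with all genes of at least 1 count (4.38% of all genes) and after removal of a length trend (5.64% of all genes). Fibroblast markers moved the same way, with 4 of 6 higher in batch 2 and none lower. Other markers went both ways: Pax3 was higher by 0.19 (edgeR adjusted p = 0.0207), and Nes and Tagln were lower, with log2 fold changes of -0.30 (edgeR adjusted p = 5e-06) and -0.14 (edgeR adjusted p = 0.0352). The part of these markers in the batch difference was not tested. The labels give the batch as a number only.

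**Figure D4:**
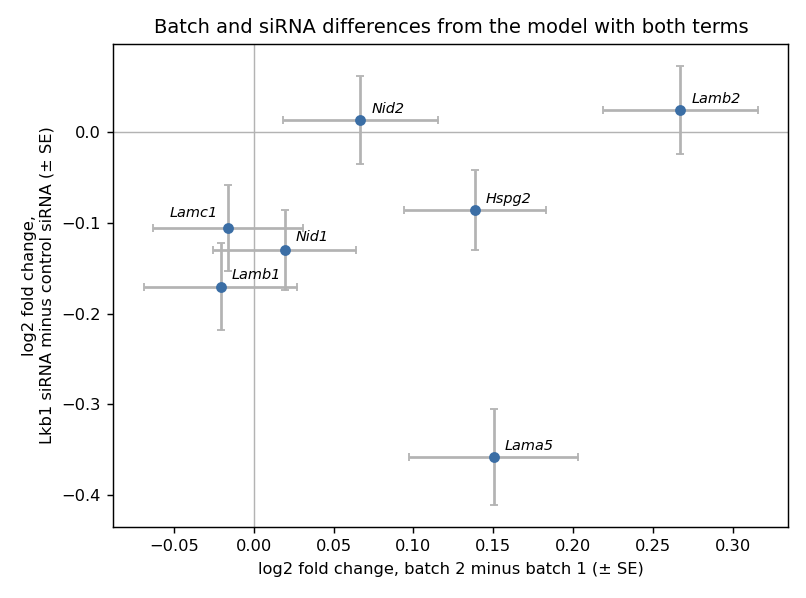
Log2 fold change by batch (x axis, batch 2 minus batch 1) and by siRNA (y axis, Lkb1 siRNA minus control siRNA) from the model with both terms, with SE bars; Lama2 and Lama4, which have few counts, are left out. Lamb2 lies far to the right at 0.27 and near 0 on the y axis, Lama5 lies lowest at -0.36, and Lamb1, Lamc1 and Nid1 lie near 0 on the x axis.

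The transcript table held 19 RefSeq transcripts of the 10 genes, of which 13 were tested. Lama4, Lamc1, Nid1 and Nid2 had 1 transcript each and the other 6 genes several. No transcript of these genes passed with or without the replicate block, and the share passing over all 34279 transcripts tested was 0% in both edgeR fits. At an unadjusted p under 0.05 in edgeR, 5 of the 13 were lower and 0 higher without the block. With the block, 4 were lower and 0 higher. The 5 include NM_008481 of Lama2, whose read assignment is uncertain, while the Lama2 gene had a log2 fold change of 0.43. Among the 34279 transcripts tested, 1239 were lower and 1074 higher without the block, and 1033 and 731 with it.

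Lama5 reads were assigned mostly to NM_001081171, which held 79.0 and 84.5% of the gene's counts in control and 74.7 and 71.8% in Lkb1 siRNA libraries. This transcript read 7.23 and 8.72 FPKM in control and 5.48 and 5.90 FPKM in Lkb1 siRNA libraries. The groups were apart, by -0.53 on the log2 scale (SE 0.110), and edgeR gave an adjusted p of 0.687. The other tested Lama5 transcript, XM_036158827, overlapped between groups, at 1.97 and 1.63 FPKM against 1.79 and 2.37 FPKM. For Lamb1, the main transcript NM_008482 had a log2 fold change of -0.11 and the lesser XM_006514993 one of -0.55 (SE 0.185, edgeR adjusted p = 0.734). The latter was at 13.8 and 14.2 FPKM in control and at 8.26 and 11.6 FPKM in Lkb1 siRNA libraries, and its groups did not overlap. For Hspg2, XM_006538575 held between 83.8 and 86.5% of the counts, with a log2 fold change of -0.07, and XM_030253229 one of -0.22 (SE 0.0601, edgeR adjusted p = 0.687). The latter was at 10.97 and 11.9 FPKM in control and at 10.28 and 9.90 FPKM in Lkb1 siRNA libraries, with the groups apart. All Lama2 counts of the control libraries were assigned to NM_008481 (12 and 21), and 0 of those of the Lkb1 siRNA libraries, where predicted models held them. With so few counts and shared exons the assignment of Lama2 reads is uncertain. Sharing of reads among transcripts of 1 gene was estimated by the authors' counting and its error was not modelled.

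**Figure D5:**
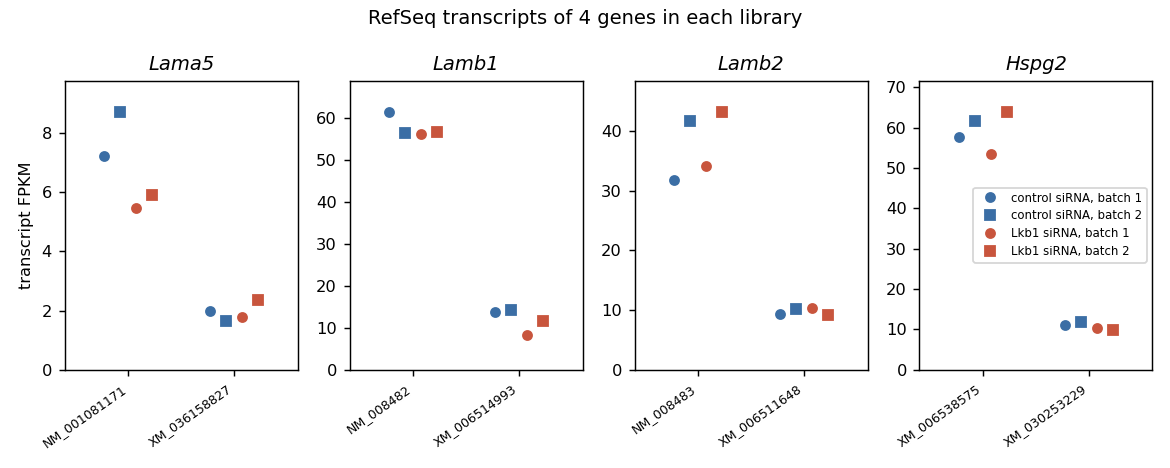
FPKM of the tested RefSeq transcripts of Lama5, Lamb1, Lamb2 and Hspg2 in the 4 libraries (y axes start at 0 and differ between panels; colours for siRNA and shapes for batch). The groups are apart for the Lama5 transcript NM_001081171, the Lamb1 transcript XM_006514993 and the Hspg2 transcript XM_030253229, while both Lamb2 transcripts overlap between groups.

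Other genes of the pathway were followed in lists, none of which had a gene past the threshold without a batch term, so the calls that follow come from the fit with the replicate block, in which 6.99% of all genes fell and 6.59% rose. Of the other laminin-type chains, 3 of 5 could be tested and none passed. Ntn4, a netrin that disrupts laminin networks, was at 2.17 and 2.49 FPKM in control and 1.82 and 1.66 FPKM in Lkb1 siRNA libraries (log2 fold change -0.46, edgeR adjusted p = 0.0847 with the block). Lamb3, a beta chain of the epithelial anchoring laminin, had a log2 fold change of 0.27 (edgeR adjusted p = 0.403 with the block). Of the basement membrane collagens 7 of 10 were tested, with 3 lower and 1 higher and a median log2 fold change of 0.08. Those lower were collagen IV chain genes: Col4a1 by 0.14 (edgeR adjusted p = 0.0155), Col4a2 by 0.19 (edgeR adjusted p = 0.000716) and Col4a5 by 0.26 (edgeR adjusted p = 6.21e-06). Col15a1, a collagen at the outer side of basement membranes, was higher, with a log2 fold change of 0.56 (edgeR adjusted p = 0.0235).

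Among other basement membrane and associated proteins, 18 of 21 were tested, 4 fell and 2 rose, with a median of -0.06. Fbln2 and Fbln5, fibulins that bridge basement membrane and elastic fibres, had log2 fold changes of -0.34 and -0.56. Hmcn1, a large hemicentin, and Frem1, a protein that anchors epithelium to mesenchyme, were higher by 0.61 and 0.56. Of the laminin receptors 14 of 15 were tested, 3 fell and 1 rose, with a median of -0.01. Itga6, the integrin alpha chain that pairs with beta chains to bind laminin, had the smallest p among them. It was at 7.39 and 6.06 FPKM in control and at 4.57 and 4.29 FPKM in Lkb1 siRNA libraries. The groups were apart and the log2 fold change was -0.64 (edgeR adjusted p = 0.101 without and 5.27e-14 with the block). Sdc2, a heparan sulfate syndecan, and Rpsa, a ribosomal protein also described as a laminin receptor, had log2 fold changes of -0.22 and -0.11, and Itga9 was higher by 0.28. The main partners did not pass: Itgb1 was at 273.6 and 263.0 FPKM against 263.0 and 268.2 FPKM, Dag1 (dystroglycan) at 55.0 and 56.9 FPKM against 53.4 and 55.9 FPKM, and Itga3 at 54.1 and 52.6 FPKM against 58.1 and 53.2 FPKM.

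Enzymes of heparan sulfate, the chains carried by perlecan, showed 1 higher and 1 lower gene of 20 tested and a median of -0.02. In either direction this was near the share over all genes (6.59% higher and 6.99% lower). Hs3st3b1, a sulfotransferase, was at 1.25 and 1.40 FPKM against 1.76 and 1.88 FPKM. Glce, the epimerase of the chain, was at 16.5 and 15.6 FPKM against 14.9 and 14.2 FPKM. Both sets of values were apart between groups, and both genes passed with the block (edgeR adjusted p = 0.0192 and 0.0194).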

How the data were processed

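RNA-seq of 4 libraries was used as deposited. RSEM 1.2.8, Bowtie2 2.2.5 and HISAT2 2.0.4 and the build GRCm39 are named, per the submitters' processing notes; no source used here gives the annotation release. The read counts the authors deposited were expected counts (5.73 to 5.97% per library were fractional for genes) and were rounded. FPKM was the authors' deposited value per transcript length and library size. Doubled decimal points in 14 gene and 31 transcript cells were read as 1 point, and 2 symbols turned into dates were restored by gene ID.

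Counts were tested with edgeR 4.0.16 in R 4.3.3 (quasi-likelihood, robust, TMM, minimum count 10, Benjamini-Hochberg over all 12222 genes or 34279 transcripts), first without a batch term and then with batch as a replicate block, and the scripts were tested on simulated data. The labels give the number as a shared batch, so it pairs the libraries; deviations of same-batch libraries from group means correlated at 0.221 across genes. The F statistic gave the SE, and CPM used TMM-scaled library sizes. Chain shares used FPKM and exact permutation tests. Alternatives used DESeq2 1.42.0, limma 3.58.1, other filters and scalings, gene length offsets, and leaving out each library.

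The text names Stk11, the 10 genes, and of each list up to 4 genes with the smallest p; Itgb1, Dag1, Itga3 and the marker genes are outside this rule, picked after their values were seen. Some items that the rule names are not reported here. The members and the lists were chosen with earlier results of these data known. The labels do not say whether cultures were independent beyond number and batch, so p-values measure only the spread between these libraries. In edgeR that spread was estimated with information shared across genes. A small p with the replicate block therefore does not rest on that gene's own libraries alone. Promoter windows and their coordinates are RefSeq's, GRCm38.p6.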

Additional observations from a re-analysis of the deposited data

How the results depend on the processing

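Among the 9 genes tested, the number lower after Lkb1 siRNA was 0 without a batch term and 3 with the replicate block. It was 1 with DESeq2 and the replicate block (Lama5), and 5 with a gene length trend removed and the replicate block. The cause of this spread was not tested. No setting called a gene of the set higher. The batch comparison called 3 genes higher, 1 with DESeq2, 1 with all genes of at least 1 count, 1 with the length trend removed and 0 with no siRNA group in the model. Lama5, Lamb1, Lamc1 and Nid1 were lower under all 15 alternatives run, and Lama4 under the 14 that tested it. Lama5 ranged from -0.44 to -0.28. For these genes both Lkb1 siRNA libraries were below both controls in CPM, so leaving out 1 library could hardly change the sign. The other alternatives used the same libraries again, so the shared sign is not separate support. Nid2, Lamb2, Hspg2 and Lama2 changed sign under some: with the length trend removed Nid2 was at -0.0096 with the block and -0.0088 without, and Lamb2 at -0.00059 without. Over the fits without 1 library, Lamb2 ranged from -0.12 to 0.18, Hspg2 from -0.187 to 0.0182, Lama2 from -0.24 to 0.87 and Nid2 from -0.0563 to 0.0849. By batch, Lamc1 was at 0.0019 under library size scaling without TMM and Nid1 at -0.003 with the length trend removed. The members are long genes, none below percentile 79.7 of length, and all genes had a median of 0.04 on the log2 scale in the longest decile and -0.07 in the shortest. No transcript passed in any fit run, and 2 against 2 libraries cannot pass a permutation test, so the alternatives say nothing of the stability of transcript calls or chain shares. Depth limits Lama1, Lama2 and Lama4.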

Other observations

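Genes that process or cut basement membrane proteins also varied, in the fit with the replicate block. Of 11 tested proteases of the basement membrane, 2 rose and 4 fell, against 6.59% and 6.99% of all genes, and the median log2 fold change was -0.00198. Mmp15, a membrane-bound matrix metalloprotease, was at 2.56 and 2.80 FPKM with control siRNA and at 3.54 and 4.71 FPKM with Lkb1 siRNA (edgeR adjusted p = 4.48e-06). Mmp9, a gelatinase that cuts collagen IV, was at 17.9 and 19.6 FPKM against 21.9 and 26.6 FPKM (edgeR adjusted p = 2.12e-06). The lysosomal proteases Ctsl and Ctsb were lower, by 0.23 and 0.19 on the log2 scale (edgeR adjusted p = 3.31e-05 and 0.0014). Both rising proteases were higher in both Lkb1 siRNA libraries than in either control, which adds nothing to the small p they were named for. The share of all genes higher in this way was not counted.

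Of 14 tested genes for folding and export of matrix proteins, 4 fell, 0 rose and 12 had a lower mean, with a median of -0.08 against 0.00049 over all genes. P4ha1, a collagen prolyl hydroxylase, was at 63.4 and 63.5 FPKM in control and 53.0 and 54.8 FPKM in Lkb1 siRNA libraries (edgeR adjusted p = 2.02e-06). Serpinh1, the collagen chaperone, Sec24d, a coat protein of export vesicles, and Hspa5, a general chaperone of the endoplasmic reticulum, had log2 fold changes of -0.14, -0.15 and -0.12. None of these genes passed in edgeR without the batch term.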
